A study of Homo sapiens with 8 samples.

Results

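Cancer cells can be shielded from immune attack by surface molecules that engage inhibitory receptors on T cells and macrophages. Here 10 genes for ligands of such receptors, or for inhibitory receptors themselves, were followed in a monocytic leukemia line. They were CD274 (PD-L1), PDCD1LG2 (PD-L2), CD80, CD86, CD47, SIRPA, HAVCR2 (TIM-3), LGALS9 (galectin-9), LILRB4 and LILRB1, chosen by symbol from the 60664 genes listed, and each symbol was found once. THP-1 cells are an established human line from an acute monocytic leukemia. Decitabine (DAC), a drug that resembles cytidine, is built into DNA and there depletes the enzymes that maintain methylation. Parental THP-1 cells and DAC-resistant THP-1 cells, both given the genotype WT in the labels, received DMSO or 1 µM DAC for 6 days, which made 4 groups of 2 libraries that the labels call biological replicates. The DAC-resistant cells were derived from the parental line by repeated pulses of a lethal DAC dose with recovery in drug-free medium between rounds, so they are 1 selected line, and the sources used here do not say whether they are 1 clone. Libraries held 27486772 to 31921542 reads on genes, recovered from the deposited values. The 2 replicates per group limit the precision, and an exact permutation test of 2 against 2 libraries cannot go below p = 0.333, so p-values come from limma, which shares the spread across genes.

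The members fall into 4 systems. CD80 and CD86 on antigen-presenting cells bind CD28, which stimulates T cells, and CTLA4, which restrains them, while PD-L1 and PD-L2 bind the inhibitory receptor PD-1. CD47 is the signal that spares a cell from phagocytosis through SIRPα, its receptor on macrophages and monocytes. TIM-3 is an inhibitory receptor that binds galectin-9 among other ligands, and LILRB4 and LILRB1 are receptors of myeloid cells that carry inhibitory tyrosine motifs in their tails. LILRB1 binds HLA class I molecules, and LILRB4 binds APOE and is known as a marker of monocytic leukemia.

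Levels are in FPKM, reads scaled by exon length and by the library total. A gene was called where the unadjusted p did not exceed 0.01 and the log2 fold change, on the scale of log2(FPKM + 1), was 1 or more in either direction. The added 1 understates the change of genes with low levels, so ratios of mean FPKM are given as well, with 95% intervals from the recovered reads (exact Clopper-Pearson) that cover counting error only. Adjusted p-values are limma's with Benjamini-Hochberg adjustment over the 14899 genes that reached 1 FPKM in 2 or more libraries. All 10 members passed that filter, but CD274, CD80, CD86 and HAVCR2 did so only through the parental DAC libraries, so their presence in the fit depended on the group in which they were high. In RNA from whole cultures, fewer cells expressing a gene and less RNA per cell cannot be told apart.

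The monocytic label was checked against 10 monocyte and myeloid markers, whose summed level was 333 to 346 FPKM in parental DMSO libraries and 408 to 417 FPKM in parental DAC libraries. In DAC-resistant cells the sum was lower, 231 to 239 FPKM in DMSO and 229 to 236 FPKM under DAC. The sum rests mainly on CD4 and SPI1, at means of 157 and 102 FPKM in parental DMSO libraries. CD14 was at 1.52 FPKM and MPO at 1.36 FPKM there. CD14, LYZ and MPO of this list were called higher with DAC in parental cells, 3 of 10 where 6.66% of all genes tested were. CD33 (log2 fold change -0.29, limma adjusted p = 0.0036) and CD4 (-0.34, limma adjusted p = 3.7e-04) were lower there. ITGAM, LYZ and CD33 were called lower in DAC-resistant cells in DMSO, 3 of 10 where 4.28% of genes were. Under DAC, 5 of 10 were called lower in DAC-resistant cells, among them CD14 (-3.32) and LYZ (-3.57), where 9.17% of genes were. For the difference of the DAC effects (DAC-resistant minus parental), 4 of 10 were called lower, where 7.16% of genes were. Markers of T cells summed to at most 0.737 FPKM in any library, with CD3D, CD3E, CD3G and CD2 at 0 in parental DMSO libraries. Dendritic cell markers summed to 0 to 0.00833 FPKM in parental DMSO libraries and 1.66 to 1.93 FPKM in parental DAC libraries, and to 0.778 to 0.879 FPKM in DMSO and 1.12 to 1.16 FPKM under DAC in DAC-resistant cells, with CLEC9A at 0 in each group. B and plasma cell markers summed to 5.91 to 10.6 FPKM and NK cell markers to 21.9 to 36.9 FPKM over the 8 libraries, while erythroid markers reached at most 2.97 FPKM and epithelial markers at most 0.575 FPKM. Within the NK list, NKG7 rose with DAC in parental cells (log2 fold change 1.41). It was called lower in DAC-resistant cells in DMSO (-1.06) and under DAC (-2.51). NCAM1 was lower with DAC in parental cells (-0.72). In DAC-resistant cells it was higher in DMSO (0.83), under the fold for a call, and was called higher under DAC (1.70). The part of these marker levels in the results described next was not tested.

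In parental DMSO libraries the members differed widely in level per length of gene. SIRPA was highest at a mean of 26.9 FPKM, followed by LILRB4 (20.7), LGALS9 (13.6), CD47 (9.24), PDCD1LG2 (3.21), LILRB1 (1.16) and CD274 (0.614). CD86 (0.233) and HAVCR2 (0.216) overlapped each other, and CD80 was lowest at 0.0647 FPKM. Under DAC the parental order became SIRPA, LGALS9, CD47, LILRB4, CD86, HAVCR2, LILRB1, CD80 and then PDCD1LG2 and CD274, which overlapped. In DAC-resistant cells SIRPA was again highest in both treatments and CD80 was lowest by its mean, with overlap among the 4 lowest genes in DMSO, and CD274, CD80, CD86, HAVCR2 and LILRB1 stayed under 1 FPKM in all 4 libraries. CD47 and LGALS9 overlapped under DAC in these cells.

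**Figure D1:**
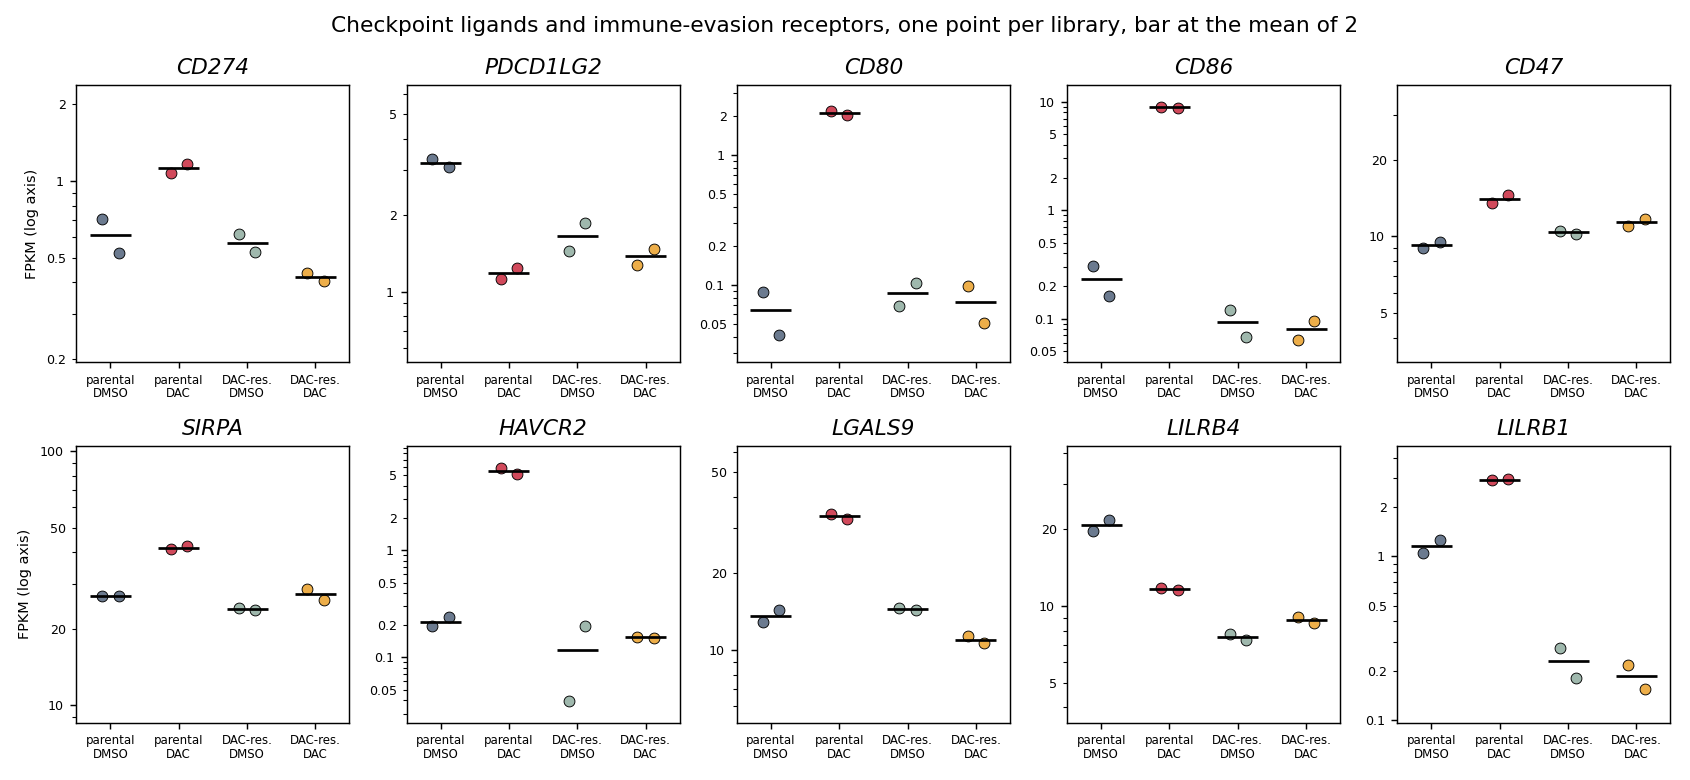
FPKM of the 10 genes (vertical log axis, a scale per panel) in parental and DAC-resistant (DAC-res.) THP-1 cells with DMSO or DAC, 1 point per library and a bar at the mean of 2. CD80, CD86 and HAVCR2 are at 2.04 FPKM or above in both parental DAC libraries and at 0.303 FPKM or below in the other 6 libraries.

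Promoter sequence is shown for 5 members because their responses differ: CD80, CD86 and LGALS9 rose with DAC in parental cells, CD274 was higher by less than the fold required for a call, and LILRB4 was lower. The windows come from RefSeq (GRCh38.p14) and hold the 250 bases before the transcription start, 5′ to 3′ on the strand of the gene. They are chr3:119559615-119559864 (minus strand) for CD80, chr3:122055112-122055361 (plus) for the first of 2 annotated starts of CD86, chr17:27630938-27631187 (plus) for LGALS9, chr9:5450292-5450541 (plus) for CD274 and chr19:54662735-54662984 (plus) for LILRB4. Capitals mark matches, on either strand, to the interferon-stimulated response element (GAAA, any 2 bases, GAAA), to the interferon-gamma activated site written as TTCNNNGAA, or to the PU.1 core GAGGAA.
CD80: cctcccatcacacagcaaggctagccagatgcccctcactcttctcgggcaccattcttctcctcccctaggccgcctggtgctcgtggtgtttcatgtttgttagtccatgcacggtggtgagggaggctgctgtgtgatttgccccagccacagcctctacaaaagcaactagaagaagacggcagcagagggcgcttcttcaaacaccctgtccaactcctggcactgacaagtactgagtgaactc
CD86: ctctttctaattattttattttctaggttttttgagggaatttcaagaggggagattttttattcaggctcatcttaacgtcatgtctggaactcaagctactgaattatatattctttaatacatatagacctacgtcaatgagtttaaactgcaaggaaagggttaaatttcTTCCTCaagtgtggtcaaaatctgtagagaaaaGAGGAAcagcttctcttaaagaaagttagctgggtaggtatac
LGALS9: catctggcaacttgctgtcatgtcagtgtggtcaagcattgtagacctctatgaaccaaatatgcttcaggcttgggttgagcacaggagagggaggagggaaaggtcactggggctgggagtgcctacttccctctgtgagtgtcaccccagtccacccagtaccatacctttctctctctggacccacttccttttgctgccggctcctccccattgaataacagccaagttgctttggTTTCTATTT
CD274: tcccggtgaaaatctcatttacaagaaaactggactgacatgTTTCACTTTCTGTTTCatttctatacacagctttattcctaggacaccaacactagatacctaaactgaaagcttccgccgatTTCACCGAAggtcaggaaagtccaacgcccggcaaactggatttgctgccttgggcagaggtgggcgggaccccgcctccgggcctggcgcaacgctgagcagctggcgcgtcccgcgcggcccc
LILRB4: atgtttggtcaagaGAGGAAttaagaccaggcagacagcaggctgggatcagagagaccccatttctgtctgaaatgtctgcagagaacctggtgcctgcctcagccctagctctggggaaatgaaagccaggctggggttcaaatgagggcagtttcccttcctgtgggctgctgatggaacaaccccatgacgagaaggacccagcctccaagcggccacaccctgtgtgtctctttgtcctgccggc
Searched with the 50 bases after the start included, CD274 held 2 matches to the response element that overlap each other, at -208 and -202, and 1 match to TTCNNNGAA at -125. LGALS9 held 1 match to the response element at -9, which ends on the first transcribed base, 1 base beyond the printed window. CD86 held 3 matches to GAGGAA, at -76, -43 and 10, and LILRB4 held 1 at -236. The window of the other annotated start of CD86 held no match, 1 of 3 windows of LILRB1 held GAGGAA at 9, and the window of CD80 held no match to these letters. Among all 34943 windows of this length, 3.57% hold the response element, 7.66% hold TTCNNNGAA and 27.9% hold GAGGAA. The windows of CD80 (7 CG dinucleotides), CD86 (3), LGALS9 (2) and LILRB4 (4) were below the median of 14 over all windows, and CD274 (22) was above it. CD47, whose window had no match, held 45 CG, more than in 96.5% of windows. PDCD1LG2, SIRPA and HAVCR2 were not matched.

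The comparison of DAC with DMSO in parental cells asked how the drug moves these genes in the sensitive line. 4 of the 10 members were called higher (CD80, CD86, HAVCR2 and LGALS9) and 0 lower, where 6.66% of all genes tested were called higher and 2.64% lower. Either way, 9.31% of genes were called. The called CD80, CD86 and HAVCR2 and the uncalled CD274 had passed the filter only through the parental DAC libraries, where they were high. With no fold required, limma adjusted p-values were under 0.05 for 8 members that were higher and 2 that were lower, where 33.6% of genes were higher and 24.1% lower by this rule, 57.7% in all. The count was 9, without CD274, with quantile normalization and without parental DMSO replicate 2. The groups did not overlap for 10 of 10 members, nor for 79.4% of genes. The median log2 fold change was 0.74 over the members and 0.057 over all genes tested. The same comparison in DAC-resistant cells gave 0 calls among the members, where 0.235% of genes were called (0.114% higher and 0.121% lower). There 3 members had an unadjusted p under 0.05 by limma and voom on the recovered reads also called 0. At an adjusted p under 0.05 by limma, SIRPA was higher and LGALS9 lower, 2 of 10, where 11.2% of genes passed (5.88% higher and 5.35% lower). SIRPA lost this under 11 of 17 other settings, with adjusted p from 0.055 to 0.17, among them 0.14 without the filter on low values and 0.072 with a replicate block. LGALS9 lost it under 3 of 17, without either DAC-resistant DMSO replicate or without DAC-resistant DAC replicate 2. The groups did not overlap for 5 members, nor for 56.3% of genes, and the median log2 fold change was -0.018 over the members and 0.0071 over all genes.

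CD80 and CD86, the ligands of CD28 and CTLA4, lie on chromosome 3 at 119524293 to 119559614 (minus strand) and 122055362 to 122121139 (plus strand; GRCh38, GENCODE 44). CD86 was at 0.303 and 0.163 FPKM in parental DMSO libraries (33 and 17 reads) and at 8.93 and 8.82 FPKM with DAC (844 and 833 reads). In DAC-resistant cells it was at 0.120 and 0.0678 FPKM in DMSO and at 0.0638 and 0.0950 FPKM under DAC. Both parental DAC libraries were thus far above the other 6, which held 7 to 33 reads each. DAC raised CD86 in parental cells by a log2 fold change of 3.0 (SE 0.097, limma adjusted p = 1.5e-06), a 38.1-fold ratio (interval 28.6 to 51.2), and it ranked 96 of the genes tested by size of rise. In DAC-resistant cells the log2 fold change was -0.019 (limma adjusted p = 0.94), and the ratio of 0.847 had an interval of 0.412 to 1.68. The difference between the DAC effects was -3.02 (SE 0.14, limma adjusted p = 1.1e-05).

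CD80 was at 0.0883 and 0.0411 FPKM in parental DMSO libraries (9 and 4 reads) and at 2.16 and 2.04 FPKM with DAC (191 and 180 reads). In DAC-resistant cells it was at 0.0690 and 0.104 FPKM in DMSO and at 0.0975 and 0.0508 FPKM under DAC, so its parental DAC libraries also stood apart from all others. The rise in parental cells was 1.54 on the log2 scale (SE 0.11, limma adjusted p = 4.1e-05), a ratio of 32.5 (interval 18.6 to 61.1). The DAC effect in DAC-resistant cells was -0.016 (limma adjusted p = 0.96), and the difference between the effects was -1.56 (SE 0.15, limma adjusted p = 2.8e-04). Of its 3213 exon bases, 798 are shared with TIMMDC1 on the other strand, and the counting's strand setting was not stated. TIMMDC1 was at 30.0 to 37.3 FPKM in all 8 libraries and had a log2 fold change of -0.25 with DAC in parental cells, so it was lower where CD80 was higher. Other members share 0.941% (HAVCR2) to 13% (LILRB4) of their exon bases with another gene, or none that was found, and the genes overlapping LILRB4 and LILRB1 were listed at 0.

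The PD-1 ligands CD274 and PDCD1LG2 are neighbours on chromosome 9 (5450503 to 5470566 and 5510531 to 5571282, both plus strand), and they moved in opposite directions in parental cells. CD274 was at 0.706 and 0.522 FPKM in parental DMSO libraries (92 and 65 reads) and at 1.07 and 1.17 FPKM with DAC (121 and 132 reads). It was at 0.617 and 0.526 FPKM in DAC-resistant cells in DMSO and at 0.435 and 0.405 FPKM there under DAC. The parental DAC libraries were highest and the DAC-resistant DAC libraries lowest, and neither overlapped any other group. In parental cells CD274 was 1.82-fold higher with DAC (interval 1.48 to 2.23), a log2 fold change of 0.40 (SE 0.11, limma adjusted p = 0.018), short of the fold for a call. It was 0.22 with quantile normalization (limma adjusted p = 0.11) and 0.31 without parental DMSO replicate 2 (0.094). The DAC effect in DAC-resistant cells was -0.15 (limma adjusted p = 0.45). The difference between the effects was called with a pseudocount of 0.1 and with voom. In the main fit it fell short of a call, at -0.54 (SE 0.15, limma adjusted p = 0.024). That adjusted p was 0.058 without the filter on low values, 0.077 with quantile normalization, and 0.06 to 0.077 without parental DMSO replicate 2, DAC-resistant DMSO replicate 1 or either DAC-resistant DAC replicate.

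PDCD1LG2 was at 3.32 and 3.11 FPKM in parental DMSO libraries (256 and 229 reads) and at 1.12 and 1.24 FPKM with DAC (75 and 83 reads). DAC-resistant libraries were at 1.45 and 1.86 FPKM in DMSO and at 1.28 and 1.48 FPKM under DAC, so parental cells in DMSO were above all other groups. PDCD1LG2 was 2.72-fold lower with DAC in parental cells (interval 2.27 to 3.28), a log2 fold change of -0.95 (SE 0.10, limma adjusted p = 3.1e-04) just short of the fold for a call. That call was made under 5 other settings, with values of -1.03 with upper-quartile scaling to -1.44 with voom. In DAC-resistant cells the effect was -0.16 (limma adjusted p = 0.39) and the groups overlapped. The difference between the effects was 0.79 (SE 0.14, limma adjusted p = 0.0043), short of the fold for a call. It was called with a pseudocount of 0.1, in TPM and with voom. Of 9 tested neighbours of CD274 on 9p24, 0 were called in any of the 5 comparisons at limma's thresholds, and their median log2 fold change with DAC in parental cells was 0.037.

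CD47, the ligand, lies on chromosome 3 (108043091 to 108091862, minus strand), and SIRPA, its receptor, on chromosome 20 (1894167 to 1940592, plus strand). Both were more abundant than CD80, CD86, CD274 and PDCD1LG2 in each group. With DAC in parental cells they changed less by ratio of mean FPKM, but on the log2 scale CD274 changed less than both. CD47 was at 8.97 and 9.52 FPKM in parental DMSO libraries, 13.5 and 14.5 FPKM with DAC, 10.5 and 10.2 FPKM in DAC-resistant cells in DMSO, and 11.0 and 11.8 FPKM there under DAC. The parental DAC libraries lay above all others. In parental cells it was 1.52-fold higher with DAC (interval 1.46 to 1.58), a log2 fold change of 0.55 (SE 0.054, limma adjusted p = 2.1e-04). The DAC-resistant effect was 0.12 (limma adjusted p = 0.22), and the difference between the effects was -0.43 (SE 0.077, limma adjusted p = 0.0039).

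SIRPA was at 26.9 FPKM in both parental DMSO libraries and at 41.2 and 42.1 FPKM with DAC. It was at 24.1 and 23.8 FPKM in DAC-resistant cells in DMSO and at 28.6 and 26.1 FPKM there under DAC, so that only the parental DAC libraries passed 40 FPKM. With DAC it was 1.55-fold higher in parental cells (log2 fold change 0.61, SE 0.044, limma adjusted p = 5.0e-05) and 1.14-fold higher in DAC-resistant cells (0.18, SE 0.044, limma adjusted p = 0.048), both under the fold for a call, and the latter p was above 0.05 under most other settings. The difference between the effects was -0.43 (SE 0.063, limma adjusted p = 0.0017). SIRPA has close paralogs that can share its reads, so its level is uncertain to that extent. Of 3 tested SIRP relatives, SIRPD alone was called in any comparison, lower in DAC-resistant than in parental cells under DAC (log2 fold change -1.17, limma adjusted p = 5.3e-04). That is 1 of 3, where 9.17% of all genes tested were called lower. SIRPD had passed the filter only through the parental DAC libraries, where it was high.

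HAVCR2 (chromosome 5, 157085422 to 157142869, minus strand), the TIM-3 receptor, was at 0.196 and 0.236 FPKM in parental DMSO libraries (20 and 23 reads) and at 5.91 and 5.17 FPKM with DAC (522 and 456 reads). In DAC-resistant cells it was at 0.0395 and 0.197 FPKM in DMSO and at 0.156 and 0.152 FPKM under DAC, and these 4 libraries held 4 to 19 reads. Only the parental DAC libraries were clearly above the rest. The rise in parental cells was 2.42 on the log2 scale (SE 0.11, limma adjusted p = 7.6e-06), a ratio of 25.6 (interval 18.9 to 35.7). The DAC-resistant effect was 0.049 (limma adjusted p = 0.84), and the difference between the effects was -2.37 (SE 0.16, limma adjusted p = 6.3e-05). Its deposited values fitted an exon length of 3212 bases, where the annotation gives 5311.

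LGALS9 (chromosome 17, 27629798 to 27649560, plus strand), which encodes the TIM-3 ligand galectin-9, was at 12.9 and 14.3 FPKM in parental DMSO libraries and at 34.3 and 32.8 FPKM with DAC. It was at 14.5 and 14.3 FPKM in DAC-resistant cells in DMSO and at 11.3 and 10.6 FPKM there under DAC. The parental DAC libraries were highest and the DAC-resistant DAC libraries lowest, with no overlap with the DMSO groups. LGALS9 rose with DAC in parental cells by 1.25 on the log2 scale (SE 0.057, limma adjusted p = 6.8e-06), a ratio of 2.47 (interval 2.39 to 2.56). In DAC-resistant cells it was 1.31-fold lower with DAC (interval 1.26 to 1.37), a log2 fold change of -0.37 (SE 0.057, limma adjusted p = 0.013) below the fold for a call. The difference between the effects was -1.61 (SE 0.081, limma adjusted p = 1.8e-05).

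**Figure D2:**
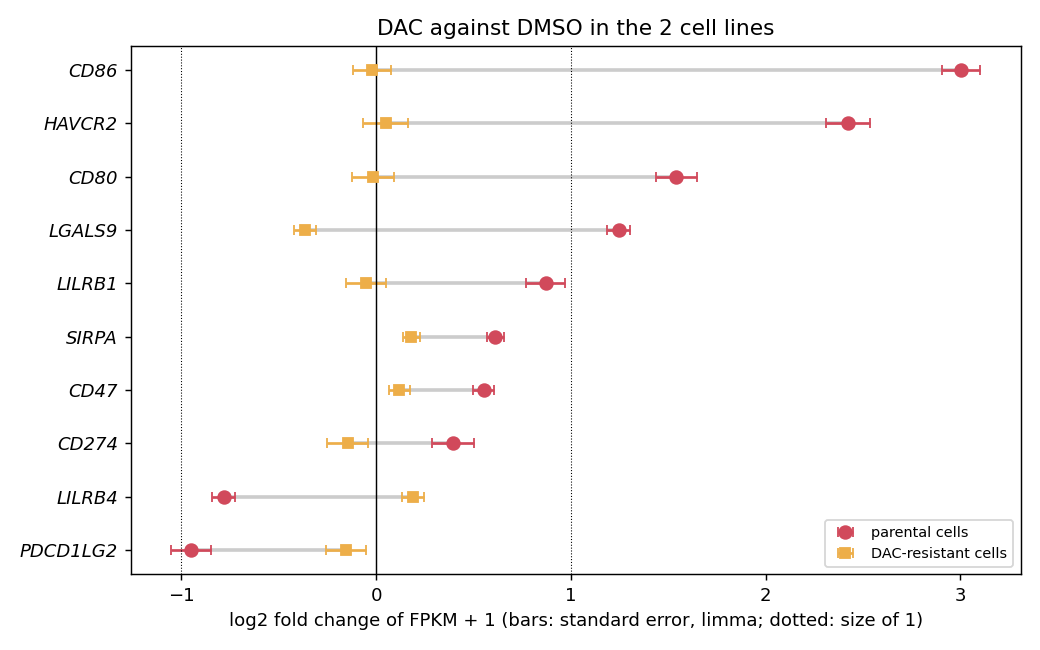
log2 fold change of FPKM + 1 with DAC against DMSO for the 10 genes (horizontal axis) in parental cells (circles) and DAC-resistant cells (squares), with bars for the standard error by limma and dotted lines at a size of 1. In parental cells 4 genes pass 1, from LGALS9 at 1.25 to CD86 at 3.0, and in DAC-resistant cells the values lie between -0.37 and 0.19.

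LILRB4 and LILRB1 lie close together in the leukocyte receptor cluster of chromosome 19 (54643889 to 54670359 and 54617158 to 54638022, plus strand), and they moved in opposite directions with DAC in parental cells. LILRB4 was at 19.7 and 21.8 FPKM in parental DMSO libraries and at 11.7 and 11.5 FPKM with DAC. It was at 7.79 and 7.37 FPKM in DAC-resistant cells in DMSO and at 9.02 and 8.53 FPKM there under DAC. No 2 groups overlapped, and all DAC-resistant libraries were below all parental libraries. With DAC it was 1.78-fold lower in parental cells (interval 1.72 to 1.85), a log2 fold change of -0.78 (SE 0.057, limma adjusted p = 5.3e-05). In DAC-resistant cells the effect was 0.19 (limma adjusted p = 0.089), and the difference between the effects was 0.97 (SE 0.081, limma adjusted p = 1.5e-04), short of the fold for a call. It passed that fold, at 1.04 to 1.08, with a pseudocount of 0.1, in TPM, with quantile or upper-quartile scaling and with voom. It also reached 1.04 without parental DMSO replicate 1, and 1.01 without DAC-resistant DMSO replicate 1 or without DAC-resistant DAC replicate 2.

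LILRB1 was at 1.05 and 1.26 FPKM in parental DMSO libraries (183 and 211 reads) and at 2.92 and 2.96 FPKM with DAC (441 and 448 reads). It was at 0.276 and 0.181 FPKM in DAC-resistant cells in DMSO and at 0.216 and 0.154 FPKM there under DAC (26 to 48 reads over the 4 libraries). Every parental library lay above every DAC-resistant one. LILRB1 was 2.54-fold higher with DAC in parental cells (interval 2.26 to 2.87), a log2 fold change of 0.87 (SE 0.10, limma adjusted p = 4.3e-04) under the fold for a call, which it passed with a pseudocount of 0.1 (1.28), in TPM (1.13) and with voom (1.35). In DAC-resistant cells the effect was -0.051 (limma adjusted p = 0.81). The difference between the effects was -0.92 (SE 0.14, limma adjusted p = 0.0022), short of the fold for a call. It was called with a pseudocount of 0.1, in TPM and with voom. LILR genes are near-identical in places, so reads can be split among them and the levels of both receptors are uncertain to that extent.

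The difference between the DAC effects in both lines was tested for all members at once. CD80, CD86, HAVCR2 and LGALS9 were called lower, 4 of 10, where 7.16% of all genes tested were called lower and 3.46% higher. Either way, 10.6% were called. Of the 4 called members, CD80, CD86 and HAVCR2 had entered the filtered fit only through the parental DAC libraries, where they were high. By limma all 10 members had an adjusted p under 0.05 at any fold, 8 of them lower and LILRB4 and PDCD1LG2 higher, where 28.4% of genes were lower and 20.9% higher, 49.3% in all. The count was 9, without CD274, when all genes above 0 were tested, and CD274 had entered the filtered fit only through the group where it was high. The count was also 9 with quantile normalization. The median over the members was -0.73 and over all genes -0.053.

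In DMSO, the comparison of DAC-resistant with parental cells asked what the resistant line carries without the drug. LILRB4 alone was called, lower in DAC-resistant cells, 1 of 10 members, where 4.28% of genes tested were called lower and 4.45% higher, 8.73% in all. At an adjusted p under 0.05 with no fold required, 4 members were lower by limma, where 26.2% of genes were lower and 31.3% higher, 57.5% in all. SIRPA is one of the 4 and lost this without the filter (adjusted p = 0.054), in TPM (0.14) and without any 1 of the 4 DMSO libraries (0.061 to 0.079), which left 3 members lower. The groups did not overlap for 7 members, nor for 78.6% of genes, and the median log2 fold change was -0.14 over the members and 0.018 over all genes. LILRB4 was 2.74-fold lower (interval 2.62 to 2.85), a log2 fold change of -1.34 (SE 0.057, limma adjusted p = 5.7e-06). LILRB1 was 5.05-fold lower by FPKM (interval 3.93 to 6.48) with a log2 fold change of -0.81 (SE 0.10, limma adjusted p = 5.9e-04), and PDCD1LG2 was 1.94-fold lower (interval 1.67 to 2.28) with -0.67 (SE 0.10, limma adjusted p = 0.0015). Neither passed the fold, though LILRB1 did with a pseudocount of 0.1 (-1.94), in TPM (-1.44) and with voom (-2.34).

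On the scale of log2(FPKM + 1), which understates changes at low levels, the other members were closer between the lines in DMSO. By ratio of mean FPKM this did not hold for CD86. SIRPA was 1.12-fold lower in DAC-resistant cells (log2 fold change -0.16, limma adjusted p = 0.019, 0.054 without the filter), and CD47 was 1.12-fold higher by its means (0.15, limma adjusted p = 0.051). For CD47 that p was 0.041 with a replicate block, 0.016 in TPM and 0.01 with voom, while the log2 fold change was 0.063 with upper-quartile scaling (limma adjusted p = 0.35). CD86 was at lower values in DAC-resistant libraries without overlap, a ratio of 2.48 (interval 1.45 to 4.40) from 7 to 33 reads a library, with a log2 fold change of -0.17 (limma adjusted p = 0.18). CD274, CD80 and HAVCR2 overlapped between the lines, with log2 fold changes of -0.037, 0.029 and -0.12. LGALS9 had a log2 fold change of 0.083 (limma adjusted p = 0.26), and its sign turned with quantile or upper-quartile scaling.

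Under DAC, 5 of 10 members were called lower in DAC-resistant than in parental cells (CD80, CD86, HAVCR2, LGALS9 and LILRB1). Of all genes tested, 9.17% were called lower and 5.29% higher, 14.5% in all. The called CD80, CD86 and HAVCR2 and the uncalled CD274 had passed the filter only through the parental DAC libraries, where they were high. At a limma adjusted p under 0.05 and any fold 9 members were lower, where 35.1% of genes were lower and 32.0% higher, 67.0% in all. The groups did not overlap for 10 of 10 members, nor for 83.0% of genes, and the median log2 fold change was -1.06 over the members and -0.031 over all genes. Calling by an adjusted p under 0.05 with the same fold left the member counts as they were in each comparison, with 9.52% of genes called for DAC in parental cells, 0.201% for DAC in the resistant line, 9.05% for the lines in DMSO, 14.8% for the lines under DAC and 11.0% for the difference of effects. This comparison shares its parental DAC libraries with the DAC effect in parental cells, so the same high values enter both. CD86 had the largest difference of the 10, a ratio of 112 (interval 69.9 to 193) and a log2 fold change of -3.19 (SE 0.097, limma adjusted p = 7.5e-07). HAVCR2 was 35.9-fold lower (interval 25.1 to 53.1; log2 fold change -2.50, SE 0.11, limma adjusted p = 3.9e-06) and CD80 28.3-fold lower (interval 16.8 to 50.8; -1.53, SE 0.11, limma adjusted p = 2.7e-05). LILRB1 was 15.9-fold lower (interval 12.3 to 20.7; -1.73, SE 0.10, limma adjusted p = 1.2e-05) and LGALS9 3.06-fold lower (interval 2.94 to 3.17; -1.53, SE 0.057, limma adjusted p = 1.7e-06).

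A further 4 members were lower under DAC in DAC-resistant cells without passing the fold. The log2 fold changes were -0.59 for SIRPA, -0.58 for CD274, -0.37 for LILRB4 and -0.28 for CD47, with limma adjusted p-values of 3.7e-05, 0.0028, 0.0012 and 0.0035. CD274 passed with a pseudocount of 0.1 (-1.23) and with voom (-1.41). PDCD1LG2 had a log2 fold change of 0.12 (limma adjusted p = 0.33).

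**Figure D3:**
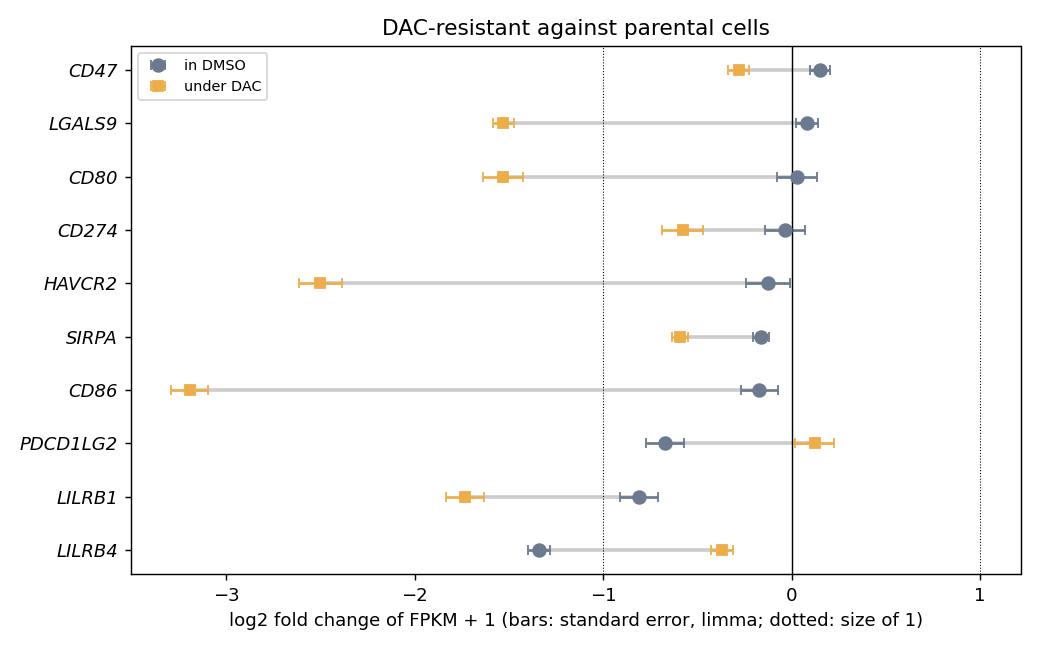
log2 fold change of FPKM + 1 in DAC-resistant against parental cells for the 10 genes (horizontal axis), in DMSO (circles) and under DAC (squares), with bars for the standard error by limma and dotted lines at a size of 1. LILRB4 lies at -1.34 in DMSO and -0.37 under DAC, while CD86 lies at -0.17 in DMSO and -3.19 under DAC.

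Of the other LILR genes, 8 of 9 were listed and 3 passed the filter. In DMSO, LILRB2, an inhibitory receptor, was at 1.72 and 1.41 FPKM in parental libraries and at 0.00830 and 0.0784 FPKM in DAC-resistant ones, a log2 fold change of -1.29 (limma adjusted p = 1.1e-04). LILRA2, an activating receptor, was at 8.69 and 8.44 FPKM against 2.58 and 2.36 FPKM, a log2 fold change of -1.46 (limma adjusted p = 2.0e-05). Under DAC these 2 genes and LILRA1 were called lower in DAC-resistant cells, at -1.5, -1.20 and -1.03. That is 2 of 3 in DMSO and 3 of 3 under DAC, where 4.28% and 9.17% of all genes tested were called lower. None of these 3 was called with DAC in either line. The 5 listed LILR genes under the filter were at 0.951 FPKM or below in each library. Among them LILRA6 was at 0.0116 and 0 FPKM in parental DMSO libraries and at 0.736 and 0.951 FPKM with DAC. LILRB3 was at 0 and 0.0353 against 0.487 and 0.750 FPKM, and LILRA5 at 0.0176 and 0 against 0.651 and 0.326 FPKM. LILRB5 was at 0 and 0.00469 against 0.0466 and 0.197 FPKM. LILRA4 was at 0.116 and 0.106 against 0.183 and 0.0833 FPKM, so its groups overlapped.

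**Figure D4:**
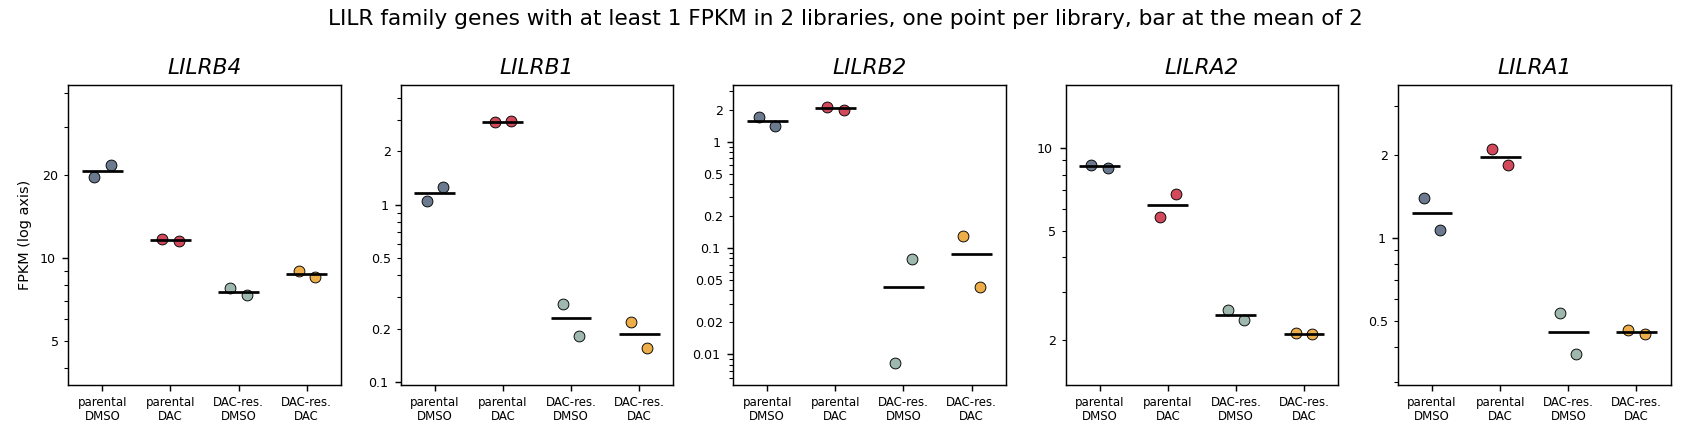
FPKM of the 5 LILR genes that passed the filter (vertical log axis, a scale per panel) in the 4 groups, 1 point per library and a bar at the mean of 2. All 5 are lower in each DAC-resistant library than in each parental one, and LILRB4 and LILRA2 are lower with DAC than with DMSO in parental cells.

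Among the partners of the members, 3 of 7 ligands counted rose with DAC in parental cells and 0 fell, where 6.66% of all genes tested were called higher and 2.64% lower. HLA-F and THBS1 of these 7 passed the filter only through the parental DAC libraries, where they were high. B2M, the light chain of the HLA class I molecules that LILRB1 binds, had a log2 fold change of 1.46 and HLA-F, itself of class I, of 1.12 (limma adjusted p = 6.0e-08 and 2.3e-04). APOE, the ligand of LILRB4, was at 1.14 and 0.827 FPKM in parental DMSO libraries, 6.18 and 7.52 FPKM with DAC, and 12.4 and 10.5 FPKM in DAC-resistant cells in DMSO. APOE was thus higher in DAC-resistant than in parental cells in DMSO (log2 fold change 2.65, limma adjusted p = 7.5e-06) where LILRB4 was lower.

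Of 8 receptors of T and NK cells, 3 passed the filter and 2 rose with DAC in parental cells, where 6.66% of all genes tested were called higher. CTLA4, the inhibitory receptor of CD80 and CD86, had 0 reads in both parental DMSO libraries, was at 1.16 and 1.21 FPKM with DAC, and was at 3.48 and 3.53 FPKM in DAC-resistant cells in DMSO. Against a floor of 3 reads per library, it was at least 25.6-fold higher with DAC in parental cells and at least 75.8-fold higher in DAC-resistant than in parental cells in DMSO. LAG3 was at 0.0310 and 0.119 FPKM in parental DMSO libraries and at 3.59 and 4.02 FPKM with DAC, a log2 fold change of 2.16 (limma adjusted p = 2.2e-05). LAG3 and CD226 passed the filter only through the parental DAC libraries, where they were high. PDCD1, the receptor of CD274 and PDCD1LG2, stayed at or below 0.0868 FPKM in all 8 libraries.

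Of 13 regulators of PD-L1 and CD47 counted, NFKB1 was called lower in DAC-resistant cells in DMSO (-1.33) and under DAC (-1.66), 1 of 13 where 4.28% and 9.17% of all genes tested were called lower. Of 8 tested phosphatases and kinases that act at inhibitory tyrosine motifs, 0 were called with DAC in either line, and FGR (-1.45) and LYN (-1.06) were called lower in DAC-resistant cells under DAC, where 9.17% of all genes were. Of 8 other evasion ligands tested, LGALS3 alone was called, higher with DAC in parental cells (1.70), lower in DAC-resistant cells under DAC (-1.44) and lower for the difference of DAC effects (-1.58), 1 of 8 where 6.66%, 9.17% and 7.16% of all genes were called in these directions. CD24 of this list passed the filter only through the parental DAC libraries, where it was high. Of 3 tested members of the wider B7 family, 0 were called in any of the 5 comparisons.

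For each called member, the genes with the most similar profile over the 8 libraries were picked from all genes tested. Profiles were centred on parental DMSO, scaled to unit length and compared by their root mean square difference. A difference of 0 is identical and 0.5 is the value for unrelated profiles. The latter is no yardstick for the nearest of many genes, which are picked for small values. Scaling also removes the size of a change, so genes high in parental DAC libraries alone look alike. Of all genes tested, 6.66% were called higher with DAC in parental cells. Shared regulation was not tested. CD80 lay closest to CHST15 (0.0093), COL3A1 (0.011) and GBP1 (0.012), and CD86 to LAMB2 (0.011), MX1 (0.014) and TDRG1 (0.015). HAVCR2 lay closest to EPX (0.012), TDRD12 (0.016) and LINC00487 (0.018). LGALS9 had less similar neighbours, TUBB6 (0.032), HNRNPF (0.034) and NLRC5 (0.036). LILRB4 lay closest to ROBO1 (0.016), PLB1 (0.017) and CCDC149 (0.017), and LILRB1 to PPFIBP1 (0.018), NPTX2 (0.023) and ABHD4 (0.026).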

How the data were processed

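Parental THP-1 cells and their DAC-resistant derivative gave RNA that was sequenced in 4 groups of 2 libraries after an mRNA library kit. Per the submitters' processing notes and the study's methods, the authors checked reads with FastQC, trimmed them with Cutadapt 1.9.1, aligned them to hg38 with HISAT2 2.1.0, sorted them with SAMtools 1.6 and counted them on Ensembl GRCh38 genes with HTSeq 0.13.5. The strand setting of the counting was not given in the sources used here. The deposited values are FPKM multiplied by 1000 for 60664 genes, and 1264 rows of repeat families were not used. Here they were divided by 1000. With exon lengths of GENCODE 44, 86.7% of values were whole reads within 0.01 reads, and other whole lengths settled nearly all others, so that 99.98% of the 39592 genes above 0 had whole reads. The recovered reads summed to 100.01% to 100.03% of the authors' library totals, as these follow from the scaling. They served as depth, for intervals and for a voom alternative.

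Log2(FPKM + 1) of 14899 genes was fitted as 4 group means in R 4.3.3 (limma 3.58.1) with trend-moderated variances (residual degrees of freedom 4, prior 2.50). The 5 comparisons were DAC against DMSO in each line, DAC-resistant against parental cells in each treatment, and the difference of the DAC effects. Genes were called at an unadjusted p no higher than 0.01 together with a log2 fold change of 1 or more in either direction, and p-values were adjusted over all genes by Benjamini-Hochberg. The members and the gene lists were chosen with earlier results of these data known. The list of ligands and the list of PD-L1 and CD47 regulators each lack a gene that is not reported here, and their counts and medians leave it out. Named genes were the members, called list genes (at most 4 a list) and the 3 nearest profiles of called members. A few further list genes, among them PDCD1, the other listed LILR genes and single marker genes, were named after their values were seen. The fits were also run on simulated data, and the outcome is not given here. Replicates of a group differed by more than sampling noise (mean chi-square per gene 3.87 to 4.09), and no values above 0 were identical. The settings tried in turn were voom, TPM, quantile or upper-quartile scaling, a lower pseudocount, a filter on the mean or none, an adjusted p in the call, a replicate block, and the fit without each library. Promoter windows came from RefSeq, which matched 7 of the 10 members.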

Additional observations from a re-analysis of the deposited data

Results flagged for a closer look

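The DAC effects in the 2 lines differed past the thresholds of a call (limma, unadjusted p of 0.01 or less and a log2 difference of 1 or more) for 4 of 10 members, where 10.6% of all genes were called. The difference of the log2 DAC effects, DAC-resistant minus parental, was -3.02 for CD86, -2.37 for HAVCR2, -1.61 for LGALS9 and -1.56 for CD80. Of these, CD86, HAVCR2 and CD80 had passed the filter only through the parental DAC libraries, where they were high. In parental cells all 4 were higher in both DAC libraries than in both DMSO libraries. LGALS9 was lower in both DAC libraries of the DAC-resistant cells than in both DMSO libraries, and the other 3 genes overlapped there. Groups of 2 libraries are too small to look for single outlying libraries.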

How the results depend on the processing

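Of 820 values of single members under an alternative, 779 kept their direction and their side of the thresholds. A further 29 newly passed, 12 turned sign and 0 lost a call. These counts overstate stability, because several settings leave the fold change as it was. They are no filter, a replicate block, an adjusted p in the call and leaving out a library of a group not compared. Members removed by the filter on the mean are not among the 820, so CD80, CD86, HAVCR2 and LILRB1 could not lose a call there. An adjusted p under 0.05 at any fold is less firm: it was lost for CD274 with DAC in parental cells (2 of 16 settings) and for the difference (6 of 16), for SIRPA with DAC in DAC-resistant cells (11 of 17) and between the lines in DMSO (6 of 17), and for LGALS9 with DAC in DAC-resistant cells (3 of 17). It was gained for CD47 between the lines in DMSO (5 of 17), LILRB4 with DAC in DAC-resistant cells (2 of 17) and PDCD1LG2 between the lines under DAC (1 of 16). Counts of called members for DAC in parental cells, DAC in DAC-resistant cells, the lines in DMSO, the lines under DAC and the difference of DAC effects were 4, 0, 1, 5 and 4. They were the same without a filter, with an adjusted p under 0.05 in the call and with a replicate block. Replicate numbers did not pair the samples, since deviations of same-numbered libraries correlated between -0.022 and 0.020. Leaving out 1 library left 1 sample in its group, assumed to vary like the others, and gave 4, 0, 1, 5 and 4 to 5.

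A mean of at least 5 FPKM left 4 members in the test. LGALS9 was then the 1 call for DAC in parental cells, for the lines under DAC and for the difference. There 573, 908 and 721 of the 7239 genes tested were called. LILRB4 was the 1 call for the lines in DMSO, where 517 of 7239 genes were called. For DAC in parental cells, 6 members were called with a pseudocount of 0.1, in TPM and with voom, where the share of all genes called went from 9.31% to 14.1%, 13% and 14.9%. With quantile or upper-quartile scaling 5 were called there, with 9.55% and 9.66% of all genes. The same scalings gave 5 for the difference, with 10.8% and 10.7% of all genes. For the lines in DMSO, 2 were called with a pseudocount of 0.1, in TPM and with voom. The share of all genes there was 15.2%, 13.7% and 15.9% against 8.73%. For the difference, 8 were called with a pseudocount of 0.1, 7 in TPM and 8 with voom, with 14.8%, 14.0% and 15.3% of all genes against 10.6%. Over all genes, calls for DAC in DAC-resistant cells were 35, and 107 with a pseudocount of 0.1, 89 in TPM, 55 with voom, 6 with a mean of at least 5 FPKM and 37 to 53 without single libraries. The mean filter and the pseudocount change which genes are tested or how low levels are weighted, and the cause of the other shifts was not tested.

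Values near 0 turned sign, and none of these was called. With single libraries left out, the DAC effect in DAC-resistant cells ran from -0.048 to 0.015 for CD80, -0.053 to 0.016 for CD86, -0.052 to 0.15 for HAVCR2 and -0.11 to 0.0043 for LILRB1. Between the lines in DMSO it ran from -0.12 to 0.046 for CD274 and -0.0029 to 0.061 for CD80. There CD274 was 0.059 with quantile scaling, and LGALS9 was -0.012 with quantile and -0.0073 with upper-quartile scaling. Depth limits CD80, CD86 and HAVCR2 outside parental DAC libraries, where they rested on 4 to 33 reads a library.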
